A study of Mus musculus with 5 samples.

Results

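The 10 genes described here, Acp5, Ctsk, Atp6v0d2, Ocstamp, Dcstamp, Mmp9, Slc9b2, Nfatc1, Oscar and Slc37a2, are known from osteoclasts, the bone-resorbing cells of the monocyte lineage. They were taken by symbol from the 32285 genes listed for each library, and each symbol matched 1 gene. They had been named with earlier results of these libraries known, by values that are not recorded, so their levels and differences are given as description, and no count of members past a threshold is read as support for the set. Tumours had been grown in the flanks of mice from LLC (Lewis lung carcinoma, a line from a mouse lung tumour) in which a guide RNA targeted JAG2, a ligand of Notch receptors (JAG2KO, 2 libraries), or was a Scramble guide (3 libraries). They had been dissociated with Liberase, and CD45+/PI- cells, live cells of blood origin, were sorted (600000) and loaded (10000) for 10x single-cell RNA sequencing. The host mice are described by no genotype, strain, age or sex in the labels. The targeted cells are the tumour cells, which the sort is meant to remove, so the sorted cells of both groups carry no label of a deletion of their own, and whether the tumour line was 1 clone is not given. The labels also do not say that libraries came from separate animals, so a p-value measures only the spread between these samples. The series is about Notch signalling and tumour-associated macrophages after Jagged2 is targeted in lung cancer.

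Osteoclasts form when myeloid precursors receive the cytokines M-CSF, through the receptor Csf1r, and RANK ligand (Tnfsf11), through the receptor RANK (Tnfrsf11a). RANK signals through Traf6, NF-kB and AP-1 and induces Nfatc1, the transcription factor that drives the program, while co-receptors such as Oscar signal through immunoreceptor adaptors. The precursors then fuse with the help of Dcstamp and Ocstamp, acidify the bone surface with a proton pump that contains the subunit Atp6v0d2, and degrade matrix with Ctsk and Mmp9. Several of these genes are also used by other cells: Mmp9 is stored in neutrophil granules, and Nfatc1 acts in T cells and mast cells.

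The libraries held 111680641 and 88782432 unique molecular identifiers (UMIs, counted transcripts) in JAG2KO 1 and 2, and 84788907 to 103246847 in the Scramble libraries. The filters kept 10272 and 19338 cells of JAG2KO 1 and 2 and 8221 to 10328 of the Scramble libraries. JAG2KO 2 stood apart, with a median of 2422 UMIs per cell against 8065 to 8965 in the other libraries, so shares of cells are given after each cell was thinned to 2000 UMIs. Cells with fewer UMIs were left out of these shares and of every result on cells grouped by their members. Jag2 stood at 3.71 and 2.25 CPM (UMIs per 1000000 UMIs of the cells summed) in JAG2KO 1 and 2, and at 3.95, 3.22 and 4.52 CPM in Scramble 1, 2 and 3, which at 191 to 394 UMIs in cells that were not targeted does not check the labels. Cells were put in classes by marker genes. Macrophages and monocytes were pooled and gave 8403 and 16525 cells in JAG2KO and 6559 to 8560 in Scramble, with a median of 7 or 8 of the 8 macrophage markers detected in cells with no member. Of these cells, 407 and 7065 in JAG2KO 1 and 2 and 300 to 606 in Scramble had fewer than 2000 UMIs, so the shares of JAG2KO 2 describe its deeper cells. Between any pair of libraries, 17 to 54 cell barcodes were shared.

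RefSeq promoter windows (250 bases before to 50 bases after a start site, GRCm38.p6) were used for 5 of the 10 members, in 7 windows. They were searched on both strands for TGGAAA, the core that NFAT proteins bind, TGANTCA, the element of AP-1, and GAGGAA, a core of the myeloid factor PU.1. NFAT cores were present in windows of Acp5, Ctsk and Oscar, PU.1 cores in those of Ctsk, Oscar and Slc37a2, and an AP-1 element in that of Slc37a2. The window of Slc9b2 held none of these 3 motifs, and no match overlapped another. Of 32851 promoter windows, 21.4% held TGGAAA, 28.3% GAGGAA and 7.81% TGANTCA, so such matches are common, and they are a description, not a site. CANGTG, a broad E-box pattern that includes sites of the MITF and TFE family but also matches other E-boxes, was searched too. It was found in windows of Acp5 and Oscar and in 44.9% of all windows, and is not marked. The windows that held a match are shown so that the letters behind these counts can be seen. Capitals mark the matches, and each line runs 5′ to 3′ on the strand of the gene: Ctsk, chr3:95498960-95499259, plus strand; Oscar, chr7:3616108-3616407, minus strand; Acp5, the 1 of its 3 windows with a match, chr9:22130549-22130848, minus strand; Slc37a2, chr9:37255689-37255988, minus strand.
Ctsk: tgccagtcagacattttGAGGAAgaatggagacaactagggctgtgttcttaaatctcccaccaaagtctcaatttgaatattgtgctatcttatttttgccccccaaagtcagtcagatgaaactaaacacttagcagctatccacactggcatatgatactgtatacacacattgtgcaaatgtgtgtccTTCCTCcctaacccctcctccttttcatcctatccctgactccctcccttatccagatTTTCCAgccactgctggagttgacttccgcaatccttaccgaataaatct
Oscar: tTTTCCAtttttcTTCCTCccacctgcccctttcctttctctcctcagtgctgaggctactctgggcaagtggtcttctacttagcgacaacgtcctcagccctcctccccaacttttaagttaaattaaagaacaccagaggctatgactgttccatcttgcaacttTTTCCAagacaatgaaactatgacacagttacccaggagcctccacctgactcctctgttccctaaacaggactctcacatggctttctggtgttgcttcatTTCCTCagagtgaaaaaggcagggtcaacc
Acp5: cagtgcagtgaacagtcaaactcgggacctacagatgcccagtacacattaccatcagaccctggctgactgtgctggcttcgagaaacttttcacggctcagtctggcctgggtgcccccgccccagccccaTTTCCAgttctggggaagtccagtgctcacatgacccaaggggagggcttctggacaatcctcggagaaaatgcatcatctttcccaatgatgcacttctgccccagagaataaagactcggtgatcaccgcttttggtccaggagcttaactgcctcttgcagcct
Slc37a2: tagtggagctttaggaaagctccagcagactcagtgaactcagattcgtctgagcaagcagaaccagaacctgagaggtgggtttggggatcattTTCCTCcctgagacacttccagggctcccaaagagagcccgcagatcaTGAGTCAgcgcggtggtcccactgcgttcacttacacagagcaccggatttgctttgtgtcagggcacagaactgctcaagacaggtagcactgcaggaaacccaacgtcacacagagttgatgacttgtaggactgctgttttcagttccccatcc

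In monocytes and macrophages, 4 members rose in the JAG2KO libraries: the fusion genes Dcstamp and Ocstamp, the pump subunit gene Atp6v0d2 and the phosphatase gene Acp5. Higher levels of 5 others, Ctsk, Mmp9, Slc9b2, Nfatc1 and Oscar, did not pass the test, and Slc37a2 differed little. The 4 calls compare with 277 genes, or 1.89%, called higher among the 14672 tested (280 were called lower; adjusted p under 0.05, edgeR's quasi-likelihood test with Benjamini-Hochberg adjustment, which gives every adjusted p below unless limma is named). Both JAG2KO libraries stood above all 3 Scramble libraries for 9 of the 10 members, and for 19.4% of all genes tested. The median log2 fold change was 1.46 over the members and 0.01 over all genes tested.

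**Figure D1:**
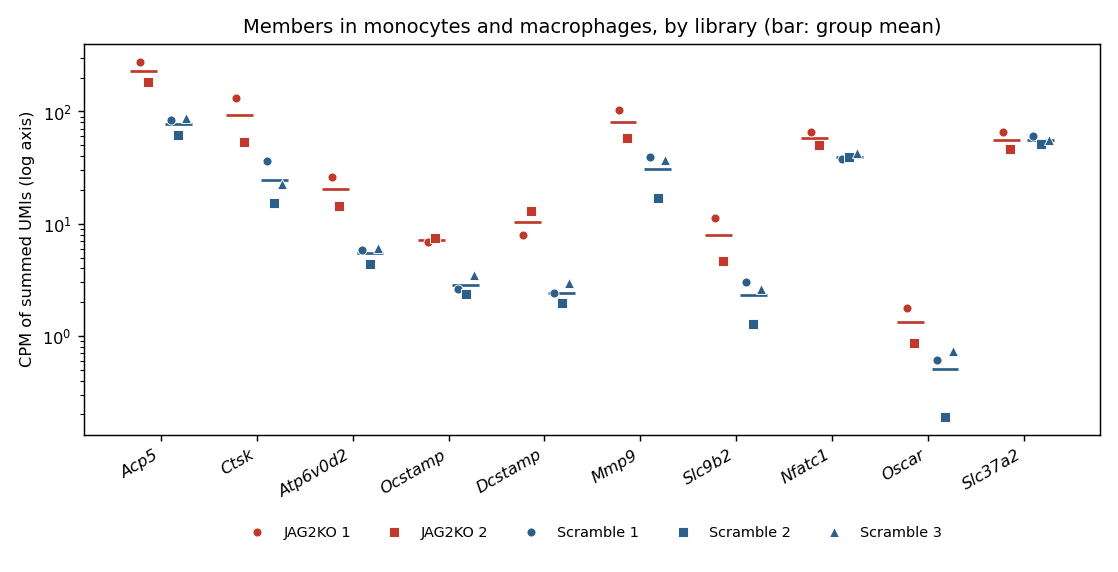
Level of each member in monocytes and macrophages, in CPM of summed UMIs on a log axis, with 1 point per library and a bar at the group mean. For 9 genes both JAG2KO points lie above the 3 Scramble points, and for Slc37a2 the groups overlap, with 65.8 and 46.0 CPM in JAG2KO and 51.6 to 60.2 CPM in Scramble.

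Nfatc1 (ENSMUSG00000033016), the transcription factor of the program, stood at 65.4 and 49.99 CPM in JAG2KO 1 and 2, against 37.5, 39.0 and 42.5 CPM in Scramble 1, 2 and 3. Both JAG2KO libraries were above the Scramble libraries, which lay close together, and the log2 fold change of 0.52 ± 0.11 (SE) did not pass (adjusted p = 0.0526). Oscar (ENSMUSG00000054594), the collagen-binding co-receptor, was scarce, with 1.78 and 0.874 CPM in JAG2KO 1 and 2 and 0.613, 0.190 and 0.728 CPM in Scramble 1, 2 and 3. JAG2KO 2 was only slightly above the highest Scramble library, and the difference did not pass (log2 1.37 ± 0.52, adjusted p = 0.218).

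Dcstamp (ENSMUSG00000022303), a membrane protein needed for the fusion of precursors, stood at 8.01 and 12.9 CPM in JAG2KO 1 and 2, against 2.39, 1.95 and 2.94 CPM in Scramble 1, 2 and 3. The groups were far apart, and unlike most members Dcstamp was higher in JAG2KO 2 than in JAG2KO 1 (log2 2.10 ± 0.26, adjusted p = 0.0141). Ocstamp (ENSMUSG00000027670), which acts with Dcstamp in fusion, had 6.85 and 7.397 CPM in JAG2KO 1 and 2 and 2.63, 2.37 and 3.50 CPM in Scramble 1, 2 and 3. The JAG2KO libraries were nearly equal, Scramble 3 was the highest of its group, and the groups did not overlap (log2 1.31 ± 0.19, adjusted p = 0.0185).

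Atp6v0d2 (ENSMUSG00000028238), the d2 subunit of the membrane sector of the proton pump, stood at 26.2 and 14.3 CPM in JAG2KO 1 and 2, against 5.88, 4.35 and 6.06 CPM in Scramble 1, 2 and 3. The lower JAG2KO library was still well above every Scramble library (log2 1.87 ± 0.24, adjusted p = 0.0156). Slc9b2 (ENSMUSG00000037994), a sodium-proton exchanger also known as NHA2, had 11.2 and 4.63 CPM in JAG2KO 1 and 2 and 3.06, 1.28 and 2.64 CPM in Scramble 1, 2 and 3. The JAG2KO libraries differed from each other more than JAG2KO 2 did from Scramble 1, and the difference did not pass (log2 1.74 ± 0.42, adjusted p = 0.0714). Slc37a2 (ENSMUSG00000032122), a sugar-phosphate transporter, gave a log2 fold change of -0.02 ± 0.14 (adjusted p = 0.966), and its groups overlapped.

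Acp5 (ENSMUSG00000001348), the tartrate-resistant acid phosphatase by which osteoclasts are stained, stood at 278 and 182 CPM in JAG2KO 1 and 2, against 83.4, 61.3 and 87.2 CPM in Scramble 1, 2 and 3. The groups were well separated (log2 1.54 ± 0.20, adjusted p = 0.0156). Ctsk (ENSMUSG00000028111), cathepsin K, the main collagen-degrading protease of osteoclasts, had 132 and 53.6 CPM in JAG2KO 1 and 2 and 36.4, 15.3 and 22.6 CPM in Scramble 1, 2 and 3. Its spread within each group was over 2-fold, so that a fold as large as that of Atp6v0d2 did not pass (log2 1.87 ± 0.41, adjusted p = 0.0544). Mmp9 (ENSMUSG00000017737), a gelatinase, had 104 and 58.1 CPM in JAG2KO 1 and 2 and 39.3, 16.9 and 36.7 CPM in Scramble 1, 2 and 3 (log2 1.35 ± 0.36, adjusted p = 0.0891).

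The calls rested on few libraries. Without Scramble 1 all 4 were lost, with adjusted p-values of 0.0599 for Acp5, 0.0616 for Dcstamp, 0.0624 for Atp6v0d2 and 0.0766 for Ocstamp, and 62 genes were called in all. Without Scramble 2, Atp6v0d2 (0.0516) and Ocstamp (0.0577) were lost, and without JAG2KO 2 Ocstamp (0.0603). With no limit on mitochondrial UMIs, a setting chosen after seeing the data, 8 members were called, Ctsk, Mmp9, Slc9b2 and Nfatc1 in addition. In that setting 329 of 14782 genes tested were called higher. At most 5% mitochondrial UMIs, 5 were called, with Ctsk and Slc9b2 gained and Ocstamp lost (adjusted p = 0.151), beside 199 of 14437 genes called higher.

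Summed over all kept cells, without gates, 7 of the 10 members were called higher in JAG2KO, beside 3.61% of the 15236 genes tested. Ctsk (log2 1.84 ± 0.40, adjusted p = 0.0427), Slc9b2 (log2 1.72 ± 0.39, adjusted p = 0.0475) and Nfatc1 (log2 0.50 ± 0.10, adjusted p = 0.0284) joined the 4 genes above. With a library left out, 3 to 7 members were called: 3 without Scramble 1 (Acp5, Atp6v0d2 and Ctsk), 4 without JAG2KO 1 or Scramble 2, which lost Ctsk, Slc9b2 and Nfatc1, 5 without Scramble 3, which lost Ctsk and Slc9b2, and 7 without JAG2KO 2. Mmp9 was not called here, with 96.9 and 65.8 CPM in JAG2KO 1 and 2 and 49.4, 26.4 and 44.9 CPM in Scramble 1, 2 and 3 (log2 0.97 ± 0.26, adjusted p = 0.0786). Neutrophils, which held 2.53% and 3.5996% of all Mmp9 UMIs in JAG2KO 1 and 2 and 18.5%, 27.5% and 23.1% in Scramble 1, 2 and 3, made up 1.79% and 1.26% of the kept cells of JAG2KO 1 and 2 and 6.76%, 7.13% and 9.04% of those of Scramble 1, 2 and 3. The part of this in the sum over all cells was not tested.

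Across the gated classes, the members did not share a cell type. Levels are compared within a gene over classes with at least 20 cells, as the mean and SD over the libraries. Ungated cells, 7.55 to 9.89% of the kept cells of a library, are not ranked. They held 0.747 to 17.5% of the Ctsk UMIs of a library, 7.98 to 22.2% of those of Dcstamp and 1.63 to 5.47% of those of Slc37a2. Slc37a2 was highest in the macrophage gate, at 56.3 ± 7.72 CPM (SD, n = 5), above the range of the monocyte gate, which came next at 22.5 ± 7.69 CPM (SD, n = 5). Acp5 was highest in macrophages too, at 139 ± 89.4 CPM (SD, n = 5), and Ctsk at 52.1 ± 46.4 CPM (SD, n = 5), but both ranges overlapped those of the monocyte gate. The level of that gate in JAG2KO 1 came from 1 cell: it held 501 of the 552 Acp5 UMIs of the gate and UMIs of all 10 members, and the other 4 libraries had 20.003 to 30.6 CPM of Acp5 there.

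Mmp9 stood highest in the neutrophil gate, at 655 ± 109 CPM (SD, n = 5), with no overlap with macrophages, which came second at 51.3 ± 33.0 CPM (SD, n = 5). Neutrophils were few, and monocytes and macrophages held 94.1% and 77.4% of all Mmp9 UMIs in JAG2KO 1 and 2 and 73.5%, 58.7% and 72.7% in Scramble 1, 2 and 3. Atp6v0d2 and Nfatc1 were highest in mast cells and basophils, in the 4 libraries with enough of these cells. Atp6v0d2 stood there at 97.8 and 125 CPM in JAG2KO 1 and 2 and at 97.5 and 123 CPM in Scramble 1 and 3, and no other class came near: neutrophils had 12.4 ± 9.18 CPM, from 3 to 13 UMIs per library, and macrophages 11.4 ± 8.996 CPM (SD, n = 5 each), with overlap. Nfatc1 stood at 232 ± 100.2 CPM (SD, n = 4) in mast cells and basophils, above the range of T and NK cells at 73.9 ± 18.3 CPM (SD, n = 5), while macrophages came next at 47.0 ± 11.4 CPM (SD, n = 5).

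The fusion genes had their highest means in conventional dendritic cells, at 16.4 ± 4.50 CPM for Ocstamp and 18.5 ± 19.7 CPM for Dcstamp (SD, n = 5 each). For Ocstamp this range overlapped that of the monocyte gate (11.4 ± 3.87 CPM), which lay above that of macrophages (4.44 ± 2.404 CPM). For Dcstamp, conventional dendritic cells had 23.7 and 50.3 CPM in JAG2KO 1 and 2, and 8.12, 10.2 and 0 CPM in Scramble 1, 2 and 3. This range overlapped that of macrophages, which came next at 5.65 ± 4.72 CPM (SD, n = 5). Slc9b2 and Oscar had no UMI in conventional dendritic cells or in mast cells and basophils. Oscar also had none in T and NK cells and in mature dendritic cells, and its highest class, macrophages, stood at 0.845 ± 0.590 CPM (SD, n = 5).

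**Figure D2:**
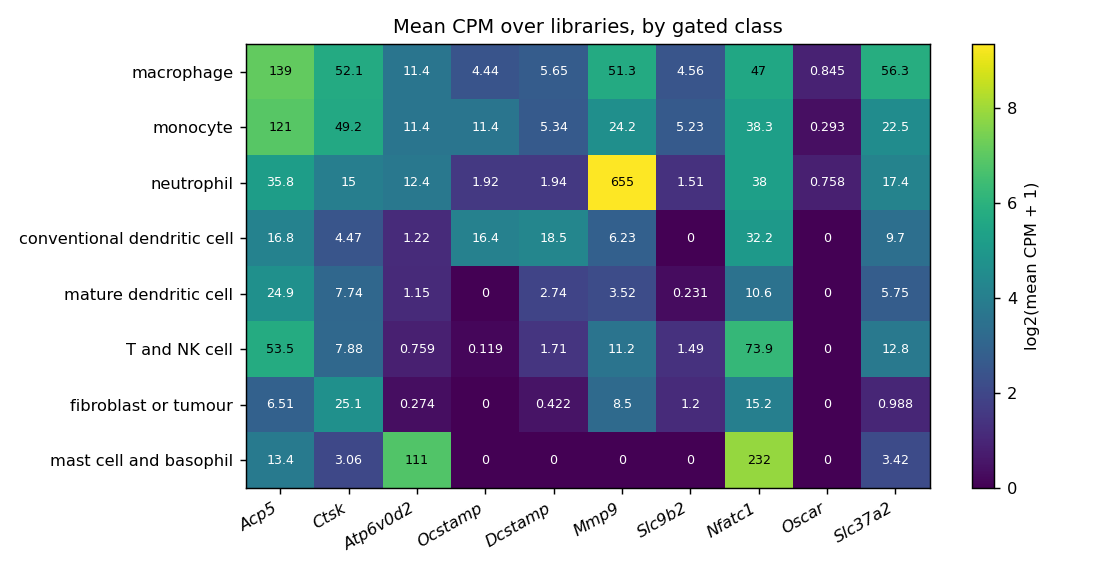
Mean CPM of each member over libraries (number in each field; colour, log2 of the mean CPM plus 1) in 8 gated classes, with 4 libraries for mast cells and basophils and 5 for the others. The brightest field is Mmp9 in neutrophils at 655 CPM, and the row of mast cells and basophils is bright only for Atp6v0d2 at 111 CPM and Nfatc1 at 232 CPM.

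In neutrophils and in dendritic cells 0 members were called between the genotypes by edgeR, and 0 by DESeq2; with no filter on low counts, edgeR called Acp5 in neutrophils and Ctsk and Dcstamp in dendritic cells. In neutrophils 6 members passed the filter on low counts, and 0.247% of the 6879 genes tested were called higher in JAG2KO. Higher in JAG2KO at an unadjusted p under 0.05 were 4 of the 6, Acp5, Ctsk, Atp6v0d2 and Nfatc1, beside 4.77% of all genes tested. Atp6v0d2 fell below the minimum level of the filter in Scramble 2 and 3, so this count is not read as a result. Acp5 stood at 72.7 and 43.0 CPM in JAG2KO 1 and 2 and 24.9, 26.6 and 11.6 CPM in Scramble 1, 2 and 3 (log2 1.501 ± 0.38, adjusted p = 0.145). Over the 5 libraries Acp5 had a mean of 35.8 CPM in neutrophils and 53.5 CPM in T and NK cells. Ctsk had 4 to 16 UMIs per library in neutrophils and Atp6v0d2 3 to 13. The part of free RNA in these neutrophil levels was not tested. Mmp9 had 787 and 617 CPM in neutrophils of JAG2KO 1 and 2, against 732, 507 and 633 CPM in Scramble 1, 2 and 3, and the groups overlapped (log2 0.22 ± 0.20, adjusted p = 0.840). The effect on Mmp9 in neutrophils minus that in monocytes and macrophages was -1.10 ± 0.25 on the log2 scale and was not called among 9796 genes (adjusted p = 0.223, limma on the log2 ratio of CPM + 5 in each library). That test called 0 genes, with 1268 at an unadjusted p under 0.05. In dendritic cells 3 members passed the filter, and 0.56% of the 7674 genes tested were called higher. Higher at an unadjusted p under 0.05 was 1 of the 3, Dcstamp, beside 6.66% of all genes tested. Dcstamp reached the minimum level of the filter only in the JAG2KO libraries, so this count is not read as a result. Dcstamp, with 18 and 33 UMIs in JAG2KO 1 and 2 and 3, 3 and 2 UMIs in Scramble 1, 2 and 3, was higher without passing (log2 2.42 ± 0.57, adjusted p = 0.0550).

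Within single monocytes and macrophages the members fell together in few cells. At 2000 UMIs per cell, 66.6% and 65.1% of cells of JAG2KO 1 and 2 and 74.0% to 75.1% of those of Scramble had no UMI of any member. At least 5 members were found in 75 of 7996 and 38 of 9460 cells of JAG2KO 1 and 2 (0.938% and 0.402%), and in 16 of 7577, 7 of 7954 and 11 of 6259 cells of Scramble 1, 2 and 3 (0.211%, 0.0880% and 0.176%). The JAG2KO shares were both above the Scramble shares. Up to 9 members were found in 1 cell in JAG2KO 2, Scramble 1 and Scramble 2, 8 in Scramble 3 and all 10 in 1 cell of JAG2KO 1.

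Cells with at least 3 members, called member-rich below, were 157 and 148 in JAG2KO 1 and 2 and 34, 34 and 27 in Scramble 1, 2 and 3. Their share was 1.96% (95% Clopper-Pearson interval 1.67 to 2.29%) and 1.56% (1.32 to 1.84%) in JAG2KO, and 0.449% (0.311 to 0.627%), 0.427% (0.296 to 0.597%) and 0.431% (0.284 to 0.627%) in Scramble. The means were 1.76% ± 0.282 in JAG2KO (SD, n = 2) and 0.436% ± 0.0113 in Scramble (SD, n = 3), a ratio of 4.05. Intervals cover counting error only. Among T and NK cells, which should lack most of the program, 2 of 310 and 1 of 344 cells of JAG2KO and 0 of 53, 0 of 36 and 1 of 47 cells of Scramble had 3 members, so single cells at this limit can be background. No T or NK cell had 4 or more, which at 36 to 344 cells per library allows shares of up to 0.872% to 8.33% of cells with so many UMIs.

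**Figure D3:**
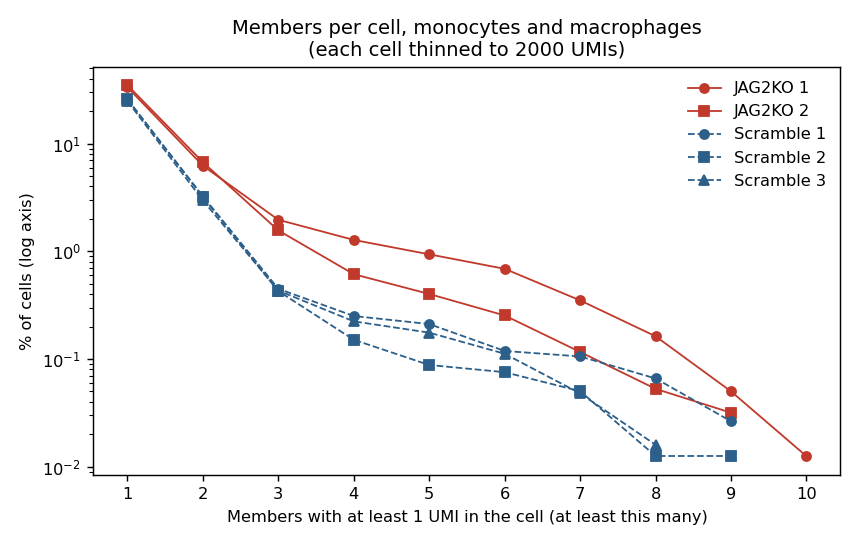
Share of monocytes and macrophages, each thinned to 2000 UMIs, with at least the number of members on the horizontal axis (log vertical axis; 1 line per library, points with no cell left out). From 1 to 6 members both JAG2KO lines lie above the 3 Scramble lines, with 1.96% and 1.56% against 0.427% to 0.449% at 3 members.

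The ratio rested on the thinning. Counted on all UMIs of each cell, with JAG2KO 2 at a median of 2672 UMIs in this class against 9298 to 9826 in the others, it was 1.53, with shares of 18.1% and 6.24% in JAG2KO 1 and 2 and 7.94%, 8.40% and 7.56% in Scramble 1, 2 and 3, so that JAG2KO 2 was then below every Scramble library. At 2000 UMIs it ran from 3.59 to 4.50 with each library left out.

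For single genes, the ratio of the mean shares of cells with a UMI at 2000 UMIs ran from 0.977 for Slc37a2 to 5.27 for Dcstamp, and for some genes the shares did not exceed those of other cells. Acp5 was found in 11.4% and 16.2% of monocytes and macrophages of JAG2KO 1 and 2 and 7.48%, 8.26% and 7.41% of those of Scramble 1, 2 and 3. T and NK cells had it in 15.5% and 8.14% in JAG2KO and 5.66%, 11.1% and 6.38% in Scramble, at class medians of 3081 to 4363 UMIs before thinning, so the share alone is not read as expression. Nfatc1 was found in 9.71% and 9.19% in JAG2KO and 7.21% to 8.10% in Scramble, against 13.2% to 23.4% of T and NK cells. Since Nfatc1 acts in T cells, that class gives no background share for it. Its share alone is not read as expression either. Ctsk and Mmp9 were each found in a larger share of T and NK cells than of monocytes and macrophages in 3 of 5 libraries, among them JAG2KO 1, where T and NK cells had them in 5.48% and 5.81% of cells and monocytes and macrophages in 4.19% and 3.68%. Atp6v0d2, Dcstamp, Ocstamp, Slc9b2 and Oscar were found in 0 to 3 T and NK cells per library. Of monocytes and macrophages, Atp6v0d2 was found in 2.01% and 1.73% in JAG2KO 1 and 2 and 0.511% to 0.553% in Scramble, and Dcstamp in 1.06% and 2.09% in JAG2KO 1 and 2 and 0.264% to 0.319% in Scramble. Ocstamp (0.763% and 1.08% in JAG2KO, 0.396% to 0.490% in Scramble), Slc9b2 (0.975% and 0.433% in JAG2KO, 0.138% to 0.290% in Scramble) and Oscar (0.250% and 0.116% in JAG2KO, 0.0377% to 0.0528% in Scramble) were rarer, and for all 5 both JAG2KO libraries were above the Scramble libraries.

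Which members kept company differed from gene to gene. Of the 161 cells with a UMI of Slc9b2, 68.9% also had Acp5, 52.8% Ctsk, 49.1% Nfatc1 and 46.6% Atp6v0d2, against 10.3%, 1.98%, 8.33% and 0.939% of cells without Slc9b2. Of the 41 cells with Oscar, 78.0% had Acp5, 73.2% Ctsk, 68.3% Mmp9 and 65.9% Atp6v0d2. Acp5 was thus the most frequent partner of both genes. At the other end, Slc37a2 was found in 10.9% of cells with Nfatc1 and 9.59% of cells without it, a ratio of 1.14 that held in 4 of 5 libraries.

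The matrix enzymes went with each other and with the pump subunit. Ctsk was found in 33.7% of 442 cells with Atp6v0d2, against 1.83% of those without it, and Mmp9 in 20.7% of 859 cells with Ctsk, against 1.93% of those without. Of the fusion genes, Dcstamp was found in 9.16% of 262 cells with Ocstamp, against 0.831% of those without, a ratio of 11.02 beside 10.7 for Mmp9 with Ctsk. Ctsk was found in 7.49% of 4127 cells with Acp5, against 1.57% of those without. In each of these 4 pairs the share was higher with the first gene in all 5 libraries. The cells of 1 library share their depth and any free RNA, and the part of these in the pairs was not tested.

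**Figure D4:**
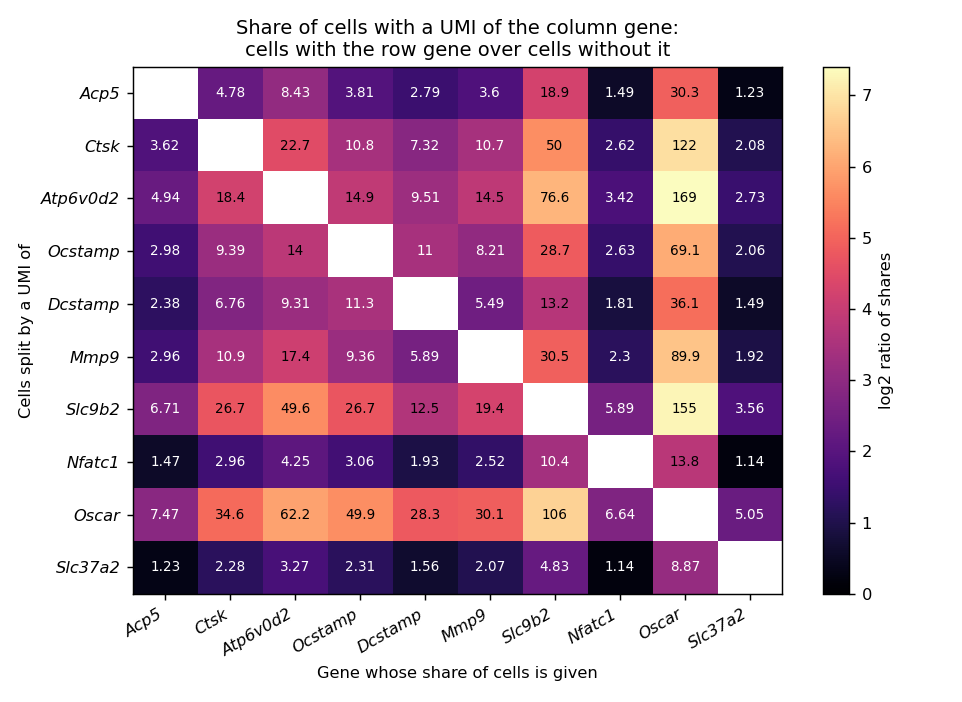
Ratio of the share of cells with a UMI of the column gene in cells with the row gene to that in cells without it (number; colour, its log2), pooled over the monocytes and macrophages of 5 libraries at 2000 UMIs per cell. Ratios run from 1.14 for Nfatc1 and Slc37a2 to 169 for Oscar in cells with Atp6v0d2, where 27 cells held both.

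How much of a member's transcripts came from these cells also differed. Cells with at least 3 of the other 9 members gave 67.0 to 87.2% of all Ctsk UMIs of monocytes and macrophages over the 5 libraries, 68.1 to 88.1% of those of Slc9b2 and 64.7 to 100% of those of Oscar. They gave 34.5 to 83.1% for Mmp9, 37.8 to 75.1% for Atp6v0d2, 20.8 to 76.8% for Acp5, 17.8 to 70.9% for Ocstamp and 10.7 to 45.7% for Dcstamp. For Nfatc1 it was 4.71 to 24.2% and for Slc37a2 2.32 to 13.2%, so that most transcripts of these 2 genes lay in other cells.

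Inside such cells the levels of most members overlapped between the genotypes. Acp5 stood at 9023 ± 1219 CPM in JAG2KO and 7605 ± 2670 CPM in Scramble (SD, n = 2 and 3), Ctsk at 3783 ± 1222 CPM in JAG2KO and 3635 ± 1626 CPM in Scramble, and Mmp9 at 3321 ± 66.7 CPM in JAG2KO and 3308 ± 1637 CPM in Scramble. Over the 10 members the ratio of the means ran from 0.781 for Oscar to 1.26 for Atp6v0d2. The libraries overlapped for all except Slc37a2, at 344 ± 29.4 CPM in JAG2KO and 414 ± 49.7 CPM in Scramble, where both JAG2KO libraries were below all 3 of Scramble.

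With those cells left out, some members remained higher in JAG2KO. Dcstamp then had 5.001 and 11.4 CPM in JAG2KO 1 and 2 and 1.32, 1.43 and 2.22 CPM in Scramble 1, 2 and 3, a ratio of 4.97, and Atp6v0d2 had 6.69 and 7.64 CPM in JAG2KO 1 and 2 and 2.02, 2.69 and 2.82 CPM in Scramble 1, 2 and 3, a ratio of 2.86. T and NK cells of any library held at most 3 UMIs of either gene, up to 2.01 CPM of Atp6v0d2 and 6.56 CPM of Dcstamp, which came from 2 UMIs in Scramble 1. Acp5 had 66.0 and 101 CPM in JAG2KO 1 and 2 and 41.8, 48.7 and 46.5 CPM in Scramble 1, 2 and 3, and T and NK cells had 77.6 and 45.9 CPM in JAG2KO and 45.9 to 51.3 CPM in Scramble, so that JAG2KO 2 was the 1 library where the macrophages exceeded them. Ctsk had 18.4 and 13.5 CPM in JAG2KO and 4.71, 5.06 and 2.92 CPM in Scramble, and T and NK cells of JAG2KO 1 had 21.4 CPM, so in that library the rest of the macrophages did not exceed them. Mmp9 overlapped between the groups, at 17.9 and 14.2 CPM in JAG2KO and 15.5, 10.97 and 12.1 CPM in Scramble. The part of free RNA in these levels was not tested.

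Cells with at least 5 members were larger and poorer in macrophage markers than cells with none. They had medians of 18252 and 14175 UMIs in JAG2KO 1 and 2 and 16039, 14890 and 19928 UMIs in Scramble 1, 2 and 3, against 6073 to 10084 UMIs in cells with no member. Their medians were 4 to 6 of the 8 macrophage markers, against 7 or 8. For cells with at least 3 members this did not hold in every library: the median was 3440 UMIs in JAG2KO 2, below that of cells with no member, and 10688 UMIs in Scramble 2 against 9960 UMIs with no member, and Scramble 3 had 8 markers in both. In cells with at least 5 members the median share of mitochondrial UMIs was 5.28% and 5.49% in JAG2KO 1 and 2 and 5.43%, 3.605% and 5.04% in Scramble 1, 2 and 3, against 2.85 to 4.21% in cells with no member. Among cells with at least 3 members, 1.27% and 12.8% in JAG2KO 1 and 2 and 3.70 to 5.88% in Scramble were in the 8% of cells of highest doublet score.

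By lowest log2 ratio over the 5 libraries, the gene most like the members was Bdh2, a dehydrogenase of ketone and siderophore metabolism. Member-rich cells had 298 and 271 CPM of it in JAG2KO 1 and 2 and 222, 197 and 221 CPM in Scramble 1, 2 and 3, while cells with no member had 2.37 to 4.63 CPM. The lowest log2 ratio (on CPM + 5) was 4.78, and the level in member-rich cells was alike in all libraries. Kbtbd11 followed at 3.92, then Jdp2 (3.84), an AP-1 family factor needed for osteoclast formation in mice, and Coq8a (3.18), a factor of coenzyme Q synthesis. Further down the ranking were Myo10, an unconventional myosin (3.04), Mt3, a metallothionein (2.88), Chchd10, a mitochondrial protein (2.85), Src, the kinase required for bone resorption (2.81), Rufy4 (2.70), Fam102a (2.69) and Adcy3, an adenylate cyclase (2.66). In all, 135 of 6011 genes ranked were at least 2-fold higher in member-rich cells in every library, and 42 were at most 0.5-fold. Genes were ranked only with a mean of at least 20 CPM in member-rich cells. This limit favours genes that are high there, so these counts are not set against each other. Since the cells were chosen by their members, the members' own ratios are no result.

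Of 51 other genes of the osteoclast pathway, 25 were higher and 11 lower in member-rich cells in every library, beside 1537 higher and 1366 lower of the 6011 genes ranked; the genes named from these lists were picked after their values were seen. Of 10 receptors and adaptors 3 were higher and 2 lower in every library. Tnfrsf11a, the RANK receptor, had 224 CPM in member-rich cells and 115 CPM in cells with no member (means of 5 libraries), a log2 ratio between 0.86 and 0.99 in every library. Csf1r had 719 CPM in member-rich cells and 696 CPM in cells with no member, and its ratio changed sign between libraries. Of the transcription factors known to restrain osteoclast formation, Irf8, Bcl6 and Id2 were lower in every library, with mean log2 ratios of -1.26, -0.55 and -0.77. Of the 10 factors known to promote it, 5 were higher in every library, among them Prdm1 (mean log2 2.66), Mitf (1.05) and Spi1 (0.55), and 3 were lower, among them Fos (-0.69). Of 10 acid and resorption genes 6 were higher in every library, led by Src (3.12), Car2 (2.93), the carbonic anhydrase that supplies protons, Snx10 (1.67) and Tcirg1 (1.40), a subunit of the osteoclast proton pump.

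Of 13 other proton pump subunit genes, 11 were higher in member-rich cells in every library, Atp6v1b2 most (mean log2 2.10), while Atp6v0a1 was lower (-0.96). Atp6v0d1, the widely used counterpart of Atp6v0d2, had 157 CPM in member-rich cells and 161 CPM in cells with no member, and its ratio changed sign between libraries. Of 12 genes of macrophage states 2 were higher and 9 lower in every library: Lpl was higher in every library (mean log2 2.91), and Retnla (-2.64), Ly6c2 (-2.02), Mrc1 (-1.43), C1qa (-1.39) and Arg1 (-1.28) were lower. The small cell numbers of Scramble, 27 to 34 member-rich cells per library, limit the precision of these ratios.

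**Figure D5:**
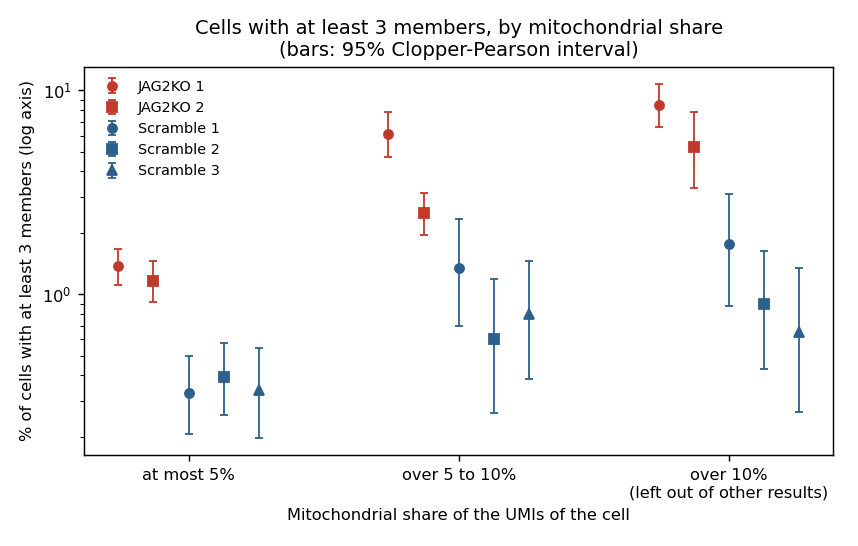
Share of monocytes and macrophages with at least 3 members at 2000 UMIs per cell (log axis), by the mitochondrial share of the cell's UMIs, with 1 point per library and 95% Clopper-Pearson intervals. In cells with over 10%, which the filter leaves out of the other results, the share was 8.50% and 5.26% in JAG2KO 1 and 2 and 1.75%, 0.894% and 0.654% in Scramble 1, 2 and 3.

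In the barcodes that the filters left out, both JAG2KO libraries were above all Scramble libraries for all 10 members, and for 11.7% of the 13829 genes with at least 10 UMIs there.

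Between the genotypes, 2 of the 48 pathway genes tested in monocytes and macrophages were called, both higher in JAG2KO, beside 3.8% of all genes called in either direction. The median log2 fold change of the 48 was 0.09, and Tnfrsf11b, Calcr and Siglec15 fell below the filter on low counts. Jdp2 had 69.8 and 52.0 CPM in JAG2KO 1 and 2 and 35.5, 32.0 and 41.7 CPM in Scramble 1, 2 and 3 (log2 0.72 ± 0.14, adjusted p = 0.0433). Car2 had 3.28 and 2.37 CPM in JAG2KO and 0.770, 0.761 and 1.23 CPM in Scramble (log2 1.60 ± 0.26, adjusted p = 0.0261). Both were higher in member-rich cells in every library, and both calls were lost without Scramble 1 (adjusted p = 0.136 for Jdp2 and 0.0941 for Car2), without Scramble 2 (0.135 and 0.0939) and without JAG2KO 1 (0.125 and 0.0719), and that of Jdp2 without JAG2KO 2 (0.0518), at most 5% mitochondrial UMIs (0.0874) or 4 gate markers (0.0659).

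Upstream of the members, no gene of the RANK and M-CSF signal passed in monocytes and macrophages. Tnfrsf11a had 120 and 112 CPM in JAG2KO 1 and 2 and 121, 112 and 127 CPM in Scramble 1, 2 and 3, which overlapped (log2 -0.07 ± 0.09, adjusted p = 0.783). Csf1r gave a log2 fold change of -0.19 ± 0.10 (adjusted p = 0.363), Traf6 0.05 ± 0.12 (adjusted p = 0.873) and Atp6v0d1 0.12 ± 0.09 (adjusted p = 0.581). Tnfsf11, RANK ligand, had 32 and 61 UMIs in JAG2KO 1 and 2 and 6, 11 and 11 UMIs in Scramble 1, 2 and 3, higher in JAG2KO without passing (log2 2.28 ± 0.51, adjusted p = 0.0555). Summed over all kept cells, Tnfsf11 was called higher in JAG2KO (log2 1.59 ± 0.31, adjusted p = 0.0291), beside 3.61% of the 15236 genes tested. It had 135 and 158 UMIs there in JAG2KO 1 and 2, and 46, 35 and 52 UMIs in Scramble 1, 2 and 3. T and NK cells, which can make RANK ligand, were 3.50% and 2.296% of the kept cells of JAG2KO 1 and 2. They were 0.642%, 0.416% and 0.693% of those of Scramble 1, 2 and 3, and their part in these levels was not tested. Of the 12 macrophage state genes, 2 were called higher and 3 lower in JAG2KO monocytes and macrophages.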

How the data were processed

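The values are UMI counts, not normalized, in 1 matrix per library that the authors deposited and made with cellranger 6.0.0, per the file headers; the submitters' processing notes name Seurat and GRCm38 (mm10) with no role given. A barcode was kept if it reached 500 UMIs and 250 genes and had no more than 10% of its UMIs from mitochondrial genes. A cell was gated to the class with the most of 8 markers detected, if it had at least 3 and at least 2 more than any other class. Between macrophage and monocyte no margin was asked, and a tie went to macrophage. No doublet caller was used; removal of the 8% of cells with the highest doublet score was an alternative. The members, lists and rules were chosen with earlier results of these data known. UMIs were summed per library and class and tested with edgeR 4.0.16 (TMM, its filter on low counts, adjusted p under 0.05 over all genes). On simulated counts for 14672 genes in monocytes and macrophages, 95% of genes changed by 2 and 69% of those changed by 1 on the log2 scale were called. In the same run 19 unchanged genes were called too, with 100 genes changed at each size. No permutation p is given for shares: with 2 against 3 libraries it cannot be below 0.1. Named besides the members were pathway genes called in monocytes and macrophages, 5 fixed signal genes, and the 12 genes most like the members, ranked by their lowest log2 ratio over the libraries, with at least 20 CPM in member-rich cells; some named by these rules are not reported here. DESeq2 1.42.0 and limma 3.58.1 served alternatives; other software was R 4.3.3, Python 3.11.15, numpy 2.4.6 and scipy 1.17.1. Gene positions and promoter sequences are of GRCm38.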

Additional observations from a re-analysis of the deposited data

Results flagged for a closer look

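The filters left out 2434 and 2516 barcodes in JAG2KO 1 and 2 and 1561, 2063 and 2041 in Scramble 1, 2 and 3. All 10 members had a higher CPM in these barcodes than in the kept cells, in all 5 libraries. The share of all genes that were higher there than in kept cells was not computed. This count is therefore not read as particular to the members. These barcodes are outside the main comparisons, and for all 10 genes both JAG2KO libraries were above all Scramble libraries, beside 11.7% of the 13829 genes with at least 10 UMIs there. Means over libraries in these barcodes were 1143 CPM in JAG2KO and 167 CPM in Scramble for Acp5, 641 in JAG2KO and 118 in Scramble for Ctsk, and 1028 in JAG2KO and 303 in Scramble for Mmp9. They were 58.4 CPM in JAG2KO and 11.1 in Scramble for Atp6v0d2, 32.7 in JAG2KO and 9.001 in Scramble for Ocstamp, and 34.3 in JAG2KO and 7.69 in Scramble for Dcstamp. They were 45.7 CPM in JAG2KO and 8.84 in Scramble for Slc9b2, 112 in JAG2KO and 62.4 in Scramble for Nfatc1, 23.4 in JAG2KO and 3.51 in Scramble for Oscar, and 90.9 in JAG2KO and 73.6 in Scramble for Slc37a2. Over 10% mitochondrial UMIs were found in 2433 and 2511 of these barcodes in JAG2KO 1 and 2 and in 1555, 2060 and 2036 in Scramble 1, 2 and 3. Counted with them, the share of monocytes and macrophages with at least 3 members was 2.53% and 1.72% in JAG2KO 1 and 2 and 0.549%, 0.485% and 0.464% in Scramble 1, 2 and 3, a ratio of 4.26. The part of the mitochondrial share in these levels was not tested.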

How the results depend on the processing

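The members' calls and the counts of called genes moved with the libraries, the filters and the tool; no member changed direction except Slc37a2, which is not called. In monocytes and macrophages 557 genes were called, 1257 with DESeq2, 1345 with no filter on low counts and 62 to 606 with each library left out. In neutrophils 22 were called, 72 with no filter and 5 to 45 with a library left out; in dendritic cells 56, 216 and 10 to 98; in all kept cells 1030, 1655 with no filter, 1625 with DESeq2 and 317 to 994. Called members in monocytes and macrophages were 4, 8 with no filter, 8 with no limit on mitochondrial UMIs and 0 to 6 with a library left out. The ratio of the share of member-rich cells, 4.05, was 5.04 at 1000 UMIs, 1.53 with no thinning and 2.06 with 2 members needed. The log2 fold change of Slc37a2 (-0.02) ran from -0.26 without JAG2KO 1 to 0.18 without JAG2KO 2, was 0.03 without Scramble 1 and 0.0105 with no mitochondrial limit, and ran from -0.28 to 0.10 in all kept cells; that of Traf6 (0.05) ran from -0.0066 to 0.16 with a library left out. Libraries with the same number were not shown to pair: the deviations of numbers 1 and 2 correlated at 0.158 and 0.0915. With the replicate number as a block, 1249, 82, 97 and 1750 genes were called in the same 4 classes and 9 members in monocytes and macrophages. The causes were not tested. With 1 JAG2KO library left, the lone library is assumed to vary like the Scramble libraries. Counts of 41 Oscar cells and 27 to 34 member-rich cells per Scramble library limit precision.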
